A study of Bos taurus with 36 samples.

Results

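Mammary tissue of glands milked 2 times daily (2×) was compared between lactation days 23 and 21 in 6 cows, with 6 biopsies on each day and 1 microarray for each biopsy. These 12 arrays were all those titled control on those days, of 36 arrays in the series, and the biopsies of a cow were paired by her number. The cows were multiparous Holsteins whose left udder side was milked 2× from calving onward. On day 23 a fore gland was sampled, and on day 21 a rear gland. The right udder side of the same cows was milked 4 times daily (4×) up to day 21 and 2× thereafter, and its glands, sampled at the same positions on the same days, were used for comparison. Rear glands of both sides were sampled again on day 40. All cows were sedated with xylazine and given lidocaine at the biopsy site, which was sampled shortly after a milking.

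In these glands neither the milking schedule nor the udder side changed between the biopsies, so that the comparison asks what differs between glands of an unchanged schedule 2 days apart. The day of lactation and the position of the gland changed together, and their parts in any difference cannot be told apart here. Both sides belong to the same cow, and the right side was milked more often than the left side up to day 21. The 2× glands are labelled as controls, but they shared a cow with 4× glands.

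The lactating gland consists mostly of alveoli, in which secretory epithelial cells make milk protein, fat and lactose, surrounded by contractile myoepithelial cells and drained by ducts lined with luminal epithelium. Milk fat is built from acetate and from fatty acids taken up from blood, and the fat droplets leave the cell wrapped in its membrane. Homeobox genes of the HOX clusters are transcription factors that mark position along the axes of the body during development, and many adult tissues keep a pattern of HOX expression that differs by site.

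The values were log2 signals, so that a difference of 1 is 2-fold. Defining transcripts of secretory epithelium were close to the highest values on the arrays, with gene means between 13.30 and 15.02, where the highest value of the whole table was 15.07. Of the red cell markers 3 of 3 had a mean under 5, near background, and of the adipocyte markers 3 of 4. In whole tissue, fewer cells of a type and less RNA per cell cannot be told apart.

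The cows differed strongly in how far apart their biopsies were. Between days 23 and 21, 2220 of 24016 probe sets differed at least 2-fold in the 2× glands of cow 1, 598 in those of cow 3 and 498 in those of cow 6, against 36 in cow 2, 19 in cow 4 and 31 in cow 5. In the 4× glands of the same cows the number lay between 13 and 94. The arrays of day 21 set cows 1, 3 and 6 apart: 2085, 343 and 214 probe sets lay at least 2-fold from the median array, where the 2× arrays of day 23 had 63 to 122 and the day 21 arrays of the other 3 cows had 32 to 50. The differences of cows 1 and 3 resembled each other (r = 0.615 over probe sets, a description of 2 animals), and those of the remaining pairs of cows had r between −0.237 and 0.327. The comparison of all 6 cows was therefore also made without these animals, a choice made after the arrays had been seen.

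**Figure D1:**
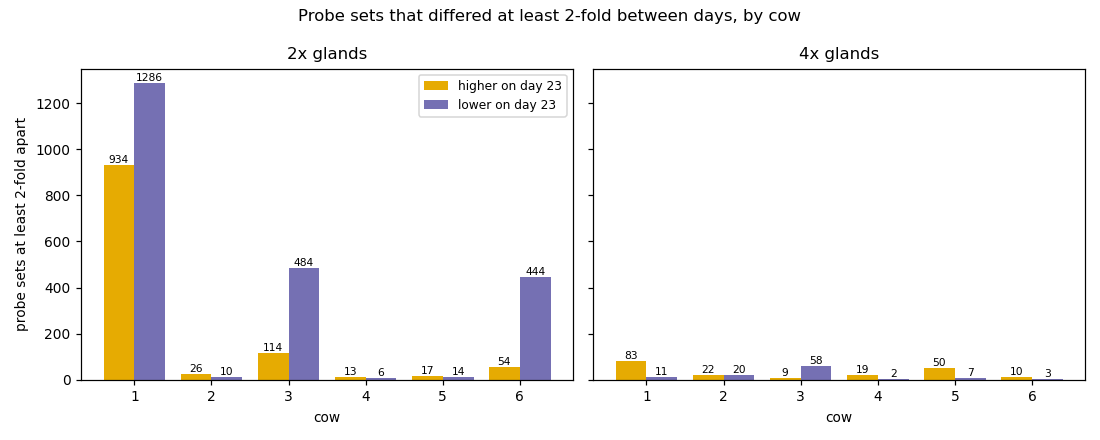
Number of probe sets (y axis) whose log2 signal differed at least 2-fold between day 23 and day 21 in each cow (x axis), for 2× glands on the left and 4× glands on the right. Cow 1 had 934 higher and 1286 lower probe sets in the 2× glands, while in the 4× glands no cow had more than 94 in both directions together.

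Over the 6 cows no probe set passed an adjusted p of 0.05 (0 of 24016, or 0%, by limma with Benjamini-Hochberg adjustment, lowest adjusted p = 0.085). At an unadjusted p under 0.01, the threshold used for every call below, 1178 probe sets differed (4.91%), where 240 are expected if nothing differs. That fit took its error from all 36 arrays. Fitted on the 12 arrays of this comparison alone, 168 probe sets passed, and with weights for each array 238, both below 240. The calls and SEs below come from the fit over 36 arrays. Such an SE pools the spread of all 6 conditions and does not measure the spread of a gene's 6 differences. It can be too small for genes that differed mostly in cows 1, 3 and 6. Of the 1178, 483 were higher on day 23 (2.01%) and 695 were lower (2.89%), and the median difference over all probe sets was 0.0178. At an unadjusted p under 0.05 the count was 3878 (16.1%). All probe sets called at 0.01 had an adjusted p between 0.085 and 0.204. In 805 (3.35%) the 6 cows had 1 direction, close to the share that random directions would give. On the log2 scale 36 (0.15%) differed by at least 1, 5 higher (0.0208%) and 31 lower (0.129%). At 0.01, 266 probe sets were called when cow 1 was left out, 386 when cow 3 was, and 103 when both were. Of the 1178 probe sets, 18.7% were also called without cow 1.

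The lowest p of all belonged to HOXA9, a homeobox transcription factor of the HOXA cluster. Its log2 signal in the 2× glands was between 6.24 and 7.54 on day 23, with a median of 6.70, and between 7.07 and 10.11 on day 21, with a median of 7.66. Cow by cow, the day 23 values were 7.54, 6.63, 6.98, 6.64, 6.76 and 6.24 in cows 1 to 6, against 10.11, 7.07, 8.84, 7.69, 7.64 and 7.55 on day 21. Every cow was lower on day 23, with differences of −2.58 to −0.44, and the days overlapped through cow 1 alone, whose day 23 value lay above the day 21 value of cow 2. HOXA9 fell by 1.35 on the log2 scale (SE 0.24), or 2.55-fold, with an adjusted p = 0.085 from limma. It passed 0.01 without any single cow and also without cows 1, 3 and 6, where the difference was −0.789. The array holds 1 probe set that the annotation gives to HOXA9.

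HOXA9 was also lower on day 23 in the 4× glands, where its signal lay between 6.66 and 7.66 on day 23 and between 6.84 and 9.31 on day 21. The difference there was −0.74 (SE 0.24, past 0.01, adjusted p = 0.999), with 4 of 6 cows lower. The change of the 4× glands minus that of the 2× glands was 0.61 (SE 0.34), which did not pass 0.01. On day 40, when rear glands were sampled again, the 2× glands had a median of 7.40 with a range of 6.73 to 9.89, and the day 40 minus day 21 difference was −0.47 (SE 0.24), not past 0.01. A contrast of the fore glands of day 23 with the rear glands of days 21 and 40, over both udder sides, was added after these values were seen. In it HOXA9 had a difference of −0.86 (SE 0.15) and an adjusted p = 0.0413, 1 of 2 probe sets past 0.05 (0.00833% of all), the other being a probe set without a gene symbol. At an unadjusted p under 0.01 that contrast held 370 probe sets (1.54%). Since fore glands were sampled only on day 23, this contrast does not separate position from day either. It also includes the 2× arrays by which HOXA9 was chosen, so that its p is not separate support.

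Over all probe sets of the 2× glands, 439 differed between days 40 and 21 at 0.01 (1.83%), 1 of them at an adjusted p under 0.05 (0.00416%), and 339 differed between days 40 and 23 (1.41%). The rear glands of day 40 had been biopsied on day 21, so that time and an earlier biopsy cannot be told apart in these contrasts. Between days 40 and 23 the position of the gland changed as well.

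Of 11 homeobox and T-box genes measured, HOXA9 was the only one that fell and MEIS2 the only one that rose, against 3.2% lower and 2.37% higher over 9155 genes with 1 probe set each. MEIS2 encodes a homeodomain partner of HOX proteins. It was dim, between 4.95 and 5.47 on day 23 and between 4.55 and 5.26 on day 21, and higher on day 23 in 6 of 6 cows, with a log2 difference of 0.36 (SE 0.11). Its second probe set had −0.18. HOXA5, of the same cluster as HOXA9, had a difference of −0.42 (SE 0.18, not past 0.01) in the 2× glands and −0.26 in the 4× glands, and cow 1 alone had −1.63 where the others lay between −0.57 and 0.01. HOXA10, HOXB3, HOXB7, HOXC6 and HOXD10, further HOX genes, had mean signals under 5 and differences between −0.25 and 0.11.

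**Figure D2:**
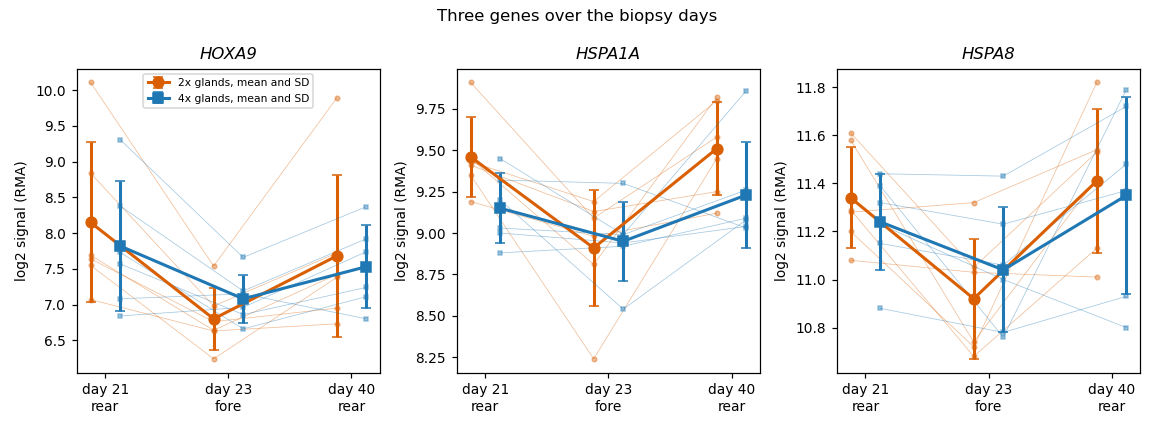
Log2 signal (y axis) of HOXA9, HSPA1A and HSPA8 on the 3 biopsy days (x axis) in 2× glands (orange circles) and 4× glands (blue squares); thin lines are cows, large symbols and bars are means and SD over 6 cows. The means of HOXA9 were 8.15 on day 21, 6.80 on day 23 and 7.68 on day 40 in 2× glands, and for each of the 3 genes the mean was lowest on day 23, when fore glands were sampled, on both udder sides.

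Heat shock chaperones, which fold and refold proteins and rise under heat and other stress, were among the lists with the largest share of calls. Of 16 measured, 6 fell in the 2× glands and 0 rose, against 3.2% lower and 2.37% higher over the 9155 genes. The median difference was −0.37, beside 0.0086 over those genes. HSPA1A, a stress-inducible chaperone of the HSP70 class, had signals between 8.24 and 9.19 on day 23 and between 9.19 and 9.91 on day 21. The highest value of day 23 and the lowest of day 21 were equal to 2 decimals, and before rounding the days did not overlap. That was so for 13 higher (0.0541%) and 11 lower (0.0458%) of all probe sets. Both shares lie below what a random order of the values would give. HSPA1A fell by 0.55 on the log2 scale (SE 0.13, adjusted p = 0.168), in 6 of 6 cows, and passed 0.01 without any single cow. Of its 5 other probe sets 2 had differences of −0.57 and −0.55, and 3 lay between −0.02 and 0.24. A probe set of this gene may also detect near-identical copies.

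HSPA8, the constitutive relative of HSPA1A, was between 10.68 and 11.32 on day 23 and between 11.08 and 11.61 on day 21, and fell by 0.42 (SE 0.12). DNAJB1, a partner of HSP70 chaperones, fell by 0.59 (SE 0.15) in 6 of 6 cows, and also passed without any single cow, while its brighter probe set had −0.37. HSPB1, HSP90AA1 and CRYAB, a small chaperone, an HSP90 chaperone and another small chaperone, fell by 0.41, 0.40 and 0.77. The list mean was −0.76, −0.45 and −0.47 in cows 1, 3 and 6 and −0.22, 0.04 and 0.06 in cows 2, 4 and 5, and without cows 1, 3 and 6 the median of the list was −0.0239. In that fit 0 of the 16 fell, and with the 12 arrays alone 2 did.

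In the 4× glands 1 of the 16 chaperones fell at that threshold, HSPH1, a large relative of HSP70, by 0.50, against 0.295% of genes that were lower there. HSPH1 had −0.43 (SE 0.17, not past 0.01) in the 2× glands. HSPA1A and HSPA8 had −0.20 and −0.19 in the 4× glands, neither past 0.01. In the contrast of fore with rear glands over both sides, HSPA1A had a difference of −0.41 (SE 0.08, adjusted p = 0.0567 by limma). HSPA8 had −0.35 in it (SE 0.08, adjusted p = 0.136 by limma). That contrast was added after the data were seen and includes the 2× arrays by which these genes were chosen. It does not separate position from day. On day 40 the 2× rear glands had a mean of 9.51 for HSPA1A, against 9.46 on day 21.

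Of 19 genes of epithelial keratins and junctions measured, 7 fell and 0 rose, against 3.2% of genes lower, with a median of −0.29. Without cows 1, 3 and 6 the median was −0.024 and 0 fell, and with the 12 arrays alone 2 fell. CLDN4, a claudin of tight junctions, lay between 6.61 and 7.22 on day 23, with a median of 6.99, and between 6.89 and 9.54 on day 21, with a median of 7.49. The day 21 glands of cows 1 and 3 stood highest, at 9.54 and 8.95, while cow 4 had 7.22 on day 23 and 7.24 on day 21. CLDN4 fell by 0.99 (SE 0.21, adjusted p = 0.168), and without cows 1 and 3 the difference was −0.422 and did not pass 0.01. CLDN7, another claudin, fell by 0.33 (SE 0.08) in 6 of 6 cows, with differences of −0.64 to −0.06.

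The other 5 were EPCAM, KRT7, KRT15, KRT18 and CDH1. EPCAM, a surface adhesion molecule of epithelium, had −1.22, −0.74 and −0.84 in cows 1, 3 and 6, against 0.02, 0.00 and −0.01 in cows 2, 4 and 5. KRT7, KRT15 and KRT18, keratins of epithelial cells, fell by 0.79, 0.85 and 0.76, and CDH1, the cadherin of epithelial contacts, by 0.60. KRT7 was lower in 3 of 6 cows. Of 7 markers of luminal and ductal epithelium, the list itself holds 5, KRT7, KRT8, KRT18, KRT19 and CLDN4. The probe set used for KRT8 was dim, with a mean of 5.07. The markers outside the list were ELF5, with a difference of 0.06, and KIT, which fell by 0.62. The mean of the 7 was lower on day 23 in 6 of 6 cows, with a mean difference of −0.49 ± 0.60 (SD over cows). Of the 7, KRT7, KRT18, CLDN4 and KIT passed 0.01 (4 of 7), against 3.2% of genes lower. KIT had −2.58 in cow 1 and −0.49 to 0.06 in the others, and its difference without cow 1 was −0.223. The mean level of the 7 ranged from 8.88 to 9.06 on day 23 and from 8.95 to 10.56 on day 21. The part of duct epithelium in the change of the list was not tested.

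The 4× glands had a median of 0.06 for the list of keratins and junctions. The change of CLDN4 was 0.02 there, and the 4× change exceeded the 2× change by 1.01 (SE 0.30, past 0.01, adjusted p = 0.544). Over all probe sets 397 of these differences in change passed an unadjusted p of 0.01 (1.65%), and 0 passed an adjusted p of 0.05, where the lowest was 0.544 and 2149 had an unadjusted p under 0.05 (8.95%). In the 4× glands alone 186 probe sets passed 0.01 (0.774%), 86 of them higher (0.358%) and 100 lower (0.416%).

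**Figure D3:**
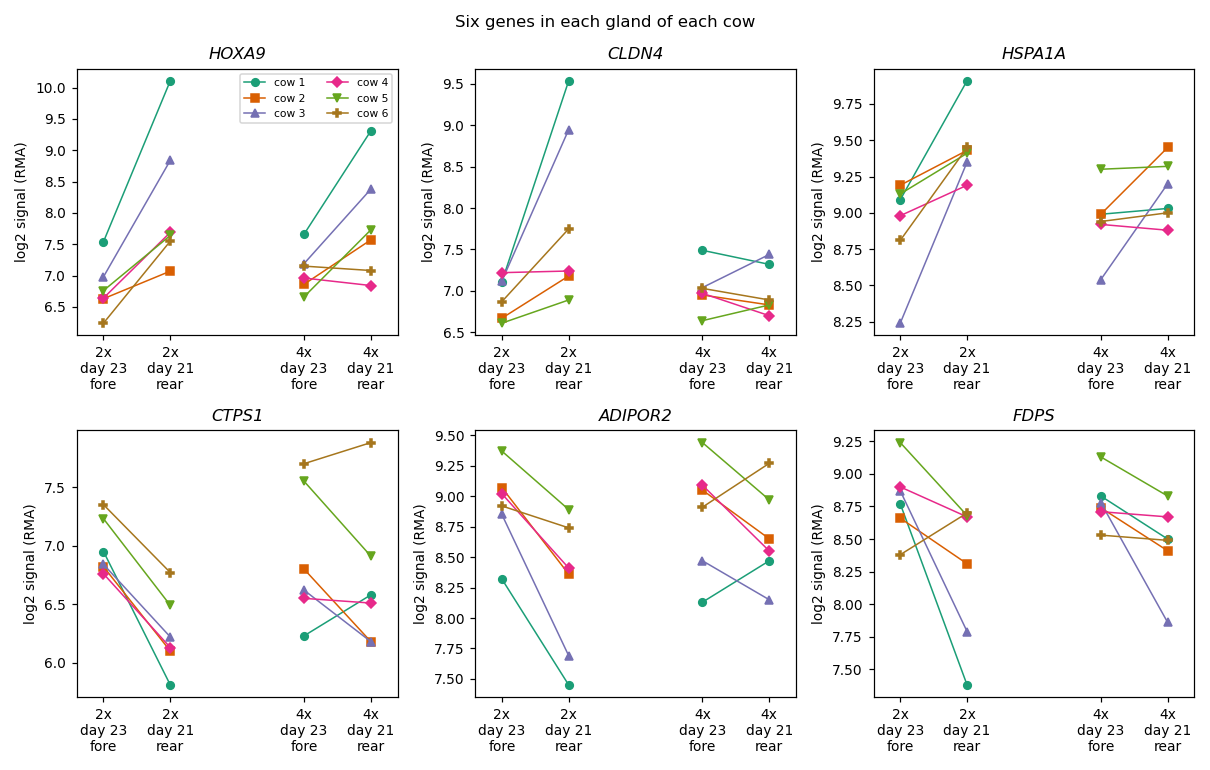
Log2 signal (y axis) of 6 genes in every gland of days 23 and 21, with a line joining the glands of a cow and a color and symbol for each cow; 2× glands are the left pair and 4× glands the right pair in each panel (x axis). HOXA9, CLDN4 and HSPA1A were lower and CTPS1 and ADIPOR2 higher on day 23 in all 6 cows of the 2× pairs, and FDPS was higher in 5.

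Among genes that rose, CTPS1 had the lowest p. CTPS1 encodes CTP synthase, which makes the CTP used for nucleic acids and for phospholipid synthesis. It lay between 6.76 and 7.35 on day 23, with a median of 6.89, and between 5.81 and 6.77 on day 21, with a median of 6.18. Cow by cow the difference was 1.14, 0.72, 0.62, 0.63, 0.74 and 0.58, and the fitted difference was 0.74 (SE 0.15, adjusted p = 0.168), or 1.67-fold. Its second probe set gave 0.71. CTPS1 was also called without cows 1, 3 and 6 (0.695), and in the 4× glands its difference was 0.20 (SE 0.15, not past 0.01).

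ADIPOR2, a receptor of adiponectin, was between 8.32 and 9.37 on day 23 and between 7.45 and 8.89 on day 21, and higher on day 23 in each cow, by 0.18 to 1.16. ADIPOR2 rose by 0.67 (SE 0.17), and without cows 1, 3 and 6 by 0.601. GSS, the enzyme that completes glutathione, rose by 0.88 (SE 0.22), with 2.69 in cow 1 and 0.05 to 1.04 in the others. FADS3, of the fatty acid desaturase family, rose by 0.38 (SE 0.09), AP1M1, a subunit of a clathrin adaptor of the trans-Golgi network, by 0.47 (SE 0.12), and RPN2, a subunit of the oligosaccharyltransferase of the endoplasmic reticulum, by 0.27 (SE 0.07). AP1M1 did not overlap between the days, with a lowest value of 9.49 on day 23 and a highest of 9.46 on day 21. Over all probe sets, 13 were higher without overlap (0.0541%), a share below what a random order of the values would give. NCLN, a membrane protein of the endoplasmic reticulum, rose by 0.42, CHCHD5, of a family of mitochondrial proteins, by 0.39, and MAFF, a small MAF transcription factor, by 0.27. ABLIM3, an actin-binding protein, TM9SF4, KLK1, a kallikrein protease, PLPPR2, MMP23 and BVD1.15 make up the 15 and rose by 0.25 to 0.49.

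Besides HOXA9, CLDN4, CLDN7 and HSPA1A, the 15 genes that fell with the lowest p held TBL1XR1, part of corepressor complexes, which fell by 0.58 (SE 0.13), and CTBP2, a corepressor, which fell by 0.48 (SE 0.12). CDK13, a kinase of RNA polymerase II transcription, fell by 0.48 (SE 0.11) with a narrow range over cows, from −0.67 to −0.29. PDCD4, an inhibitor of translation initiation, fell by 0.49 (SE 0.11), and GPSM2, which orients the mitotic spindle, by 0.78 (SE 0.18). DDHD1, a phospholipase, was dim and near background, between 4.09 and 4.52 on day 23 and between 4.59 and 5.61 on day 21. It fell by 0.46 (SE 0.10) without overlap, as 11 of all probe sets did (0.0458%), a share below that of a random order. CHMP3, of the ESCRT machinery of membrane scission, DYNLL1, a dynein light chain, MTSS1 and MAPT, proteins of the cytoskeleton, and GINM1 fell by 0.30 to 0.75.

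All 30 genes passed 0.01 without any single cow and kept their direction without cows 1, 3 and 6. With the 12 arrays alone, 14 of the 30 passed 0.01. With those 3 cows left out, 3 of the 30 still passed 0.01, HOXA9, CTPS1 and ADIPOR2. Only HOXA9 of the 30 passed 0.01 in the 4× glands, and for 12 of the 30 the change of the 4× glands differed from that of the 2× glands at an unadjusted p under 0.01. The 30 were chosen by their p, and so these counts describe them.

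**Figure D4:**
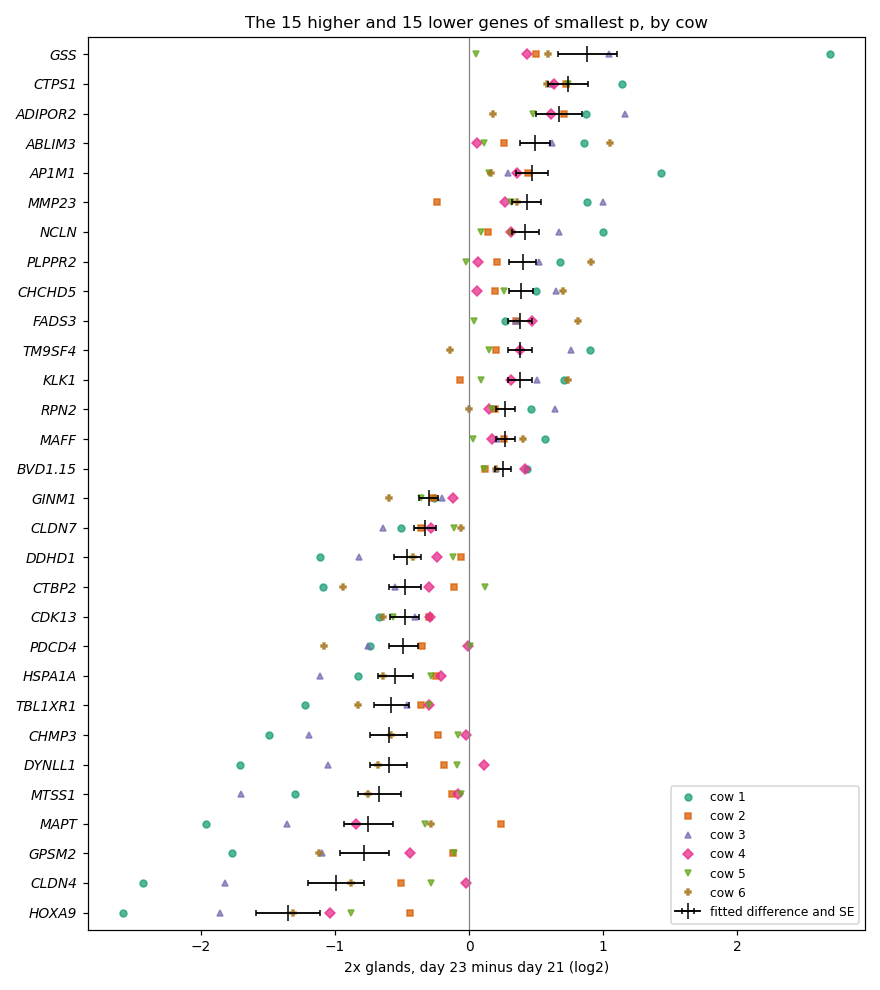
Difference of the log2 signal between day 23 and day 21 in 2× glands (x axis) for the 15 higher and 15 lower genes of lowest p (y axis, sorted by the fitted difference); colored symbols are cows, black bars the limma estimate with its SE. Differences of CTPS1 lay between 0.58 and 1.14 in the 6 cows, while those of GSS spread from 0.05 to 2.69 and those of HOXA9 from −2.58 to −0.44.

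Cholesterol synthesis supplies membranes, that of the fat globule included. Of 15 genes of the pathway measured, 15 had positive differences in the 2× glands, 4 rose and 0 fell, against 2.37% of genes higher, with a median of 0.31 there and of 0.27 in the 4× glands, where 2 of 15 rose (0.502% of genes did). FDPS, which makes farnesyl diphosphate, was between 8.38 and 9.24 on day 23 and between 7.38 and 8.70 on day 21. It rose by 0.55 (SE 0.15) in 5 of 6 cows, with −0.32 in cow 6, and by 0.384 without cows 1, 3 and 6. With the 12 arrays alone FDPS did not pass 0.01, and 1 of the 15 genes did. Without cows 1, 3 and 6 the median of the list was 0.262. TM7SF2, a sterol reductase, rose by 0.40 (SE 0.11) and passed without any single cow, and NSDHL, of the same part of the pathway, rose by 0.48 (SE 0.16) in 6 of 6 cows. LSS, which closes the sterol ring, rose by 0.52 (SE 0.17), with 1.88 in cow 1.

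In the 4× glands NSDHL rose by 0.44, and FDFT1, which makes squalene, by 0.56. This probe set of FDFT1 had a difference of 0.03 in the 2× glands, and a dimmer one had 0.50 there, not past 0.01. The mean of the cholesterol list was 0.90, 0.17, 0.53, 0.05, 0.50 and −0.28 in the 2× glands of cows 1 to 6, and 0.45, 0.13, 0.58, 0.06, 0.40 and 0.05 in their 4× glands. Of the lists of fatty acid, triglyceride, lactose and cholesterol synthesis and of transporters, cholesterol synthesis alone had a median above 0 in the 4× glands.

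Other genes of milk fat that rose had their largest difference in cow 1. Of 22 genes of fatty acid synthesis and uptake 2 rose, FASN, the fatty acid synthase, by 0.25 (SE 0.08), and ACSS2, which activates acetate, by 0.62 (SE 0.21), against 2.37% of genes higher. The median of this list was 0.25 in the 2× glands, or 0.0688 without cows 1, 3 and 6, and −0.03 in the 4× glands. FASN differed by 0.96 in cow 1 and by −0.01 to 0.17 in the others, and without cow 1 its difference was 0.104. Of 17 genes of triglyceride synthesis and fat secretion 3 rose: MUC1, a mucin of the fat globule membrane, by 0.65 (SE 0.19), MFGE8, another protein of that membrane, by 0.45 (SE 0.15), and GPAT4, an acyltransferase that begins glycerolipid synthesis, by 0.48 (SE 0.17). Without cow 1 none of the 22 and 1 of the 17 passed, and with the 12 arrays alone none of either list did. SREBF1, a regulator of lipid synthesis, rose by 0.61 with its probe set of lowest p, while its brightest probe set had 0.20 and did not pass 0.01.

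Of 16 transporters of amino acids, ions and phosphate 4 rose, against 2.37% of genes, 1 passed without cow 1 and 0 with the 12 arrays alone. AQP3, a channel for water and glycerol, was between 8.53 and 9.50 on day 23 and between 6.90 and 8.80 on day 21, and rose by 0.81 (SE 0.21) in 5 of 6 cows. SLC1A5, a carrier of neutral amino acids, rose by 0.48 (SE 0.15), SLC38A3, a glutamine carrier, by 0.62 with its probe set of lowest p (SE 0.21), and SLC34A2, a phosphate carrier, by 1.11 (SE 0.40). The median of the list was 0.03. Of 11 genes of lactose synthesis and glucose uptake none passed 0.01 with its brightest probe set, and the median was 0.12. SLC35A2, which carries UDP-galactose into the Golgi, had 0.36 with its brightest probe set and rose by 0.39 with a dimmer one (SE 0.10).

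No major milk protein passed 0.01 with its brightest probe set. The differences of the brightest probe sets of CSN1S1, CSN1S2, CSN2, CSN3, LALBA, PAEP and GLYCAM1 lay between −0.03 and 0.09 (0 of 7 called). CSN3, kappa-casein, was between 14.14 and 14.25 on day 23 and between 13.81 and 14.25 on day 21, a difference of 0.09 (SE 0.06). These signals were close to the top of the scale, where an array can compress differences. CSN2, beta-casein, has 2 more probe sets, 1 of them dim, between 5.05 and 5.64 on day 23 and between 4.26 and 5.34 on day 21, which rose by 0.43 (SE 0.13).

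Genes of the response to injury and infection that were called were lower on day 23, each with its largest fall in 1 of cows 1, 3 and 6. In the lists of acute phase, complement, antigen presentation, T cell and interferon genes, 0 genes fell without cow 1 or with the 12 arrays alone. SAA3, an acute phase protein made by the udder, was between 7.98 and 10.21 on day 23, with a median of 8.93, and between 8.59 and 13.81 on day 21, with a median of 9.49. The differences were −4.28, −4.87 and −2.03 in cows 1, 3 and 6 and −0.05, 1.25 and −0.10 in cows 2, 4 and 5. SAA3 fell by 1.68 (SE 0.61), and without cows 1, 3 and 6 its difference was 0.365 and did not pass 0.01. SAA3 was the only 1 of 19 acute phase and antimicrobial genes that passed 0.01 (5.26%, against 3.2% of all genes lower). The median of the list was −0.02.

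Of 20 complement genes 2 fell, CFB and CFI, against 3.2% of all genes, and the median of the list was −0.17, or 0.127 without cows 1, 3 and 6. CFB, of the alternative pathway, fell by 1.32 (SE 0.36), and CFI, a protease that inactivates complement, fell by 1.62 (SE 0.52). CFI had −4.29 and −4.85 in cows 1 and 3, and 0.54, 0.80 and 0.06 in cows 2, 4 and 5. Both had positive differences without cows 1, 3 and 6. CCL2, a chemokine that attracts monocytes, fell by 1.19 (SE 0.31), with −3.43 in cow 1 and −3.11 in cow 3. LTF, lactoferrin, fell by 1.23 (SE 0.35) with its dimmer probe set, while its bright probe set, at a mean of 12.22, had −0.35 (SE 0.24) and did not pass. Neutrophil markers had a mean difference of −0.39 ± 1.05 (SD over cows) and were higher on day 23 in 4 of 6 cows, with mean levels of 5.59 to 6.43 on day 23 and 5.49 to 7.40 on day 21, and their part in these differences was not tested.

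Of 13 genes of antigen presentation 3 fell, BOLA-DMB, a class II histocompatibility gene, TAP1, a peptide transporter, and PSMB9, a subunit of the immunoproteasome, by 0.33 to 0.39, against 3.2% of all genes lower. Without cows 1, 3 and 6 the differences of BOLA-DMB, PSMB9 and TAP1 were 0.134, 0.00873 and −0.058, and the median of the list was 0.0565 in place of −0.24. BOLA-DMB had −0.191 without cow 1. Of 14 T cell genes 2 fell, CD247, a signalling chain of the T cell receptor, by 0.32 (SE 0.10), and PRF1, perforin, by 0.27 (SE 0.09). Of 20 interferon genes 2 fell, IFIT5, an interferon-induced RNA-binding protein, by 0.54 (SE 0.15) and CXCL10, an interferon-induced chemokine, by 0.46 (SE 0.16). The mean of the interferon list was −1.04 in cow 1 and between −0.20 and 0.10 in the others. Markers of T cells had a mean difference of −0.16 ± 0.18 (SD over cows) and macrophage markers one of 0.00 ± 0.27 (SD over cows).

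Immediate-early genes, which are transcribed within minutes of a stimulus, went both ways: 5 of 23 fell and 2 rose, against 3.2% lower and 2.37% higher over all genes. Without cow 1, 0 fell and 1 rose, and with the 12 arrays alone 0 passed. KLF10, a zinc finger repressor, fell by 1.22 with its probe set of lowest p, at −4.11 in cow 1 and −2.09 in cow 3, and by 1.00 with its brightest (SE 0.28). KLF11, a related factor, fell by 1.12 (SE 0.29). JUNB, KLF4 and IER3 fell by 0.64, 0.54 and 0.40, and MAFF and THBS1, a matrix glycoprotein, rose by 0.27 and 0.31. Of the 5 other probe sets of THBS1, 3 had negative differences, the lowest being −0.42. FOS, JUN and EGR1, transcription factors of the first response, had differences of −0.69, −0.39 and −0.87 with their brightest probe sets, none past 0.01. Dimmer probe sets of FOS and JUN fell by 1.44 and 1.09. The mean of the list was −1.15 in cow 1, −0.53 in cow 3 and −0.02 to 0.19 in the other 4.

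Of 11 genes of iron handling 3 fell, against 3.2% of all genes, and by the brightest probe sets, from which lists were counted, 0 did without cow 1 or with the 12 arrays alone. CYBRD1, a ferric reductase, was between 5.12 and 6.82 on day 23 and between 6.00 and 8.34 on day 21, and fell by 1.26 (SE 0.38), with −1.77, −3.22 and −1.68 in cows 1, 3 and 6. This probe set also passed 0.01 with the 12 arrays alone, and the brighter one gave −1.42. CYB561, a cytochrome of vesicle membranes, fell by 0.63 (SE 0.19), and FTL, the light chain of ferritin, by 0.29. In the 4× glands CYB561 had a difference of 0.44, and the 4× change exceeded the 2× change by 1.07 (past 0.01, adjusted p = 0.544).

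**Figure D5:**
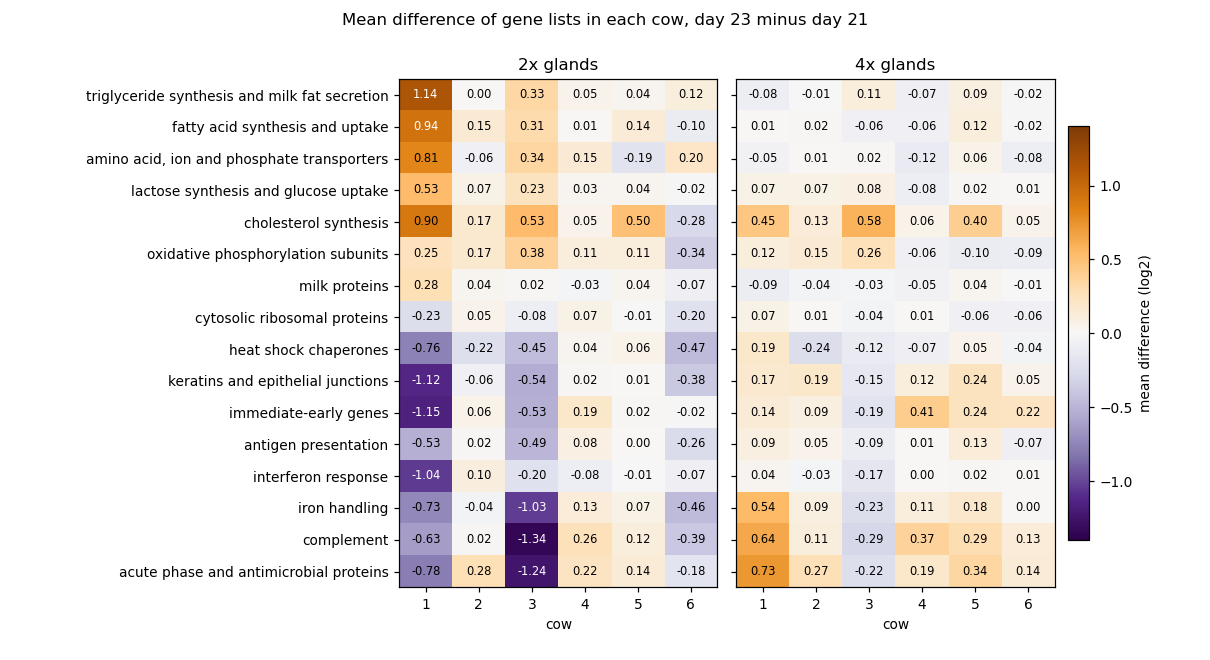
Mean difference of log2 signal, day 23 minus day 21, over the genes of 16 lists (rows) in each of the 6 cows (columns), for 2× glands on the left and 4× glands on the right; orange is higher and purple lower on day 23. Cows 1 and 3 had the largest positive means for lipid genes and negative means for complement, acute phase and iron genes in 2× glands, and cholesterol synthesis was at or above 0.05 in all 4× glands.

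Lists of the ribosome and of respiration had small medians. Of 68 ribosomal proteins of the cytosol 63 had negative differences, with a median of −0.07, and 1 fell (1.47%, against 3.2% of all genes), RPL18, by 0.20 (SE 0.07). Without cow 1 RPL18 had −0.109, and without cows 1, 3 and 6 the median of the list was 0.0374. Of 78 subunits of oxidative phosphorylation 67 had positive differences, with a median of 0.13, and 4 rose, COX8A, NDUFA4, NDUFV1 and SDHA, by 0.21 to 0.32, against 2.37% of all genes. Without cows 1, 3 and 6 this median was 0.128 and 1 rose, and 0 rose with the 12 arrays alone. After scaling to 5 reference genes, RPS9 and RPS15 among them, the median was −0.00805 for ribosomal proteins and 0.188 for oxidative phosphorylation, while the lists of chaperones, keratins and junctions, and cholesterol synthesis had −0.309, −0.227 and 0.371. Of 32 proteasome subunits PSMC4, of the regulatory particle, rose by 0.26 (SE 0.07). Its days did not overlap, as for 13 higher probe sets of all (0.0541%), a share below that of a random order. The immunoproteasome subunits PSMB9 and PSMB10 fell by 0.39 and 0.44.

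Connective and vascular tissue had a few genes that rose. COL4A1, a collagen of basement membranes, rose by 0.46 (SE 0.15) in 6 of 6 cows with its probe set of lowest p, and its other probe set had 0.05. TIMP3, an inhibitor of matrix proteases, rose by 0.57 (SE 0.16), COL1A1, a fibrillar collagen, by 0.35, and ENG, a coreceptor of endothelial cells, by 0.33 (SE 0.09). Of 24 fibroblast and matrix genes 2 rose and 0 fell, against 2.37% of all genes higher, and the median was 0.09. With the 12 arrays alone 0 rose, and without cows 1, 3 and 6, 4 did. Markers of fibroblasts had a mean difference of 0.20 ± 0.47 (SD over cows) and were higher in 3 of 6 cows, endothelial markers 0.10 ± 0.14 with 5 of 6 higher, and myoepithelial markers −0.12 ± 0.35 with 3 of 6 higher. Of 24 genes of the cell cycle 1 passed 0.01, CDKN1A, an inhibitor of the cycle, which rose by 0.33 (SE 0.11), and the median of the list was −0.01.

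Among all 83 genes named by rule that passed 0.01 in 2× glands, 21 passed with the 12 arrays alone, 38 with array weights, 35 without any single cow, 40 without cow 1, and 4 without cows 1, 3 and 6: HOXA9, CTPS1, ADIPOR2 and FDPS. In the other 3 cows 71 of the 83 kept their direction, the 30 chosen by p and direction among them, and 12 did not.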

How the data were processed

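RNA from mammary biopsies was hybridized to the Affymetrix GeneChip Bovine Genome Array, 1 array for each biopsy. The authors deposited log2 values made by RMA, which corrects background, normalizes the arrays to a common distribution and summarizes the probes of a probe set; the RMA version and the annotation release are not given in the sources used here. Array medians lay between 6.04 and 6.15, as the normalization sets them. The number of arrays limits the precision. Of 24128 probe sets 112 controls were left out, leaving 24016, of which 13292 have 1 gene symbol in GEO's platform annotation, 86 several and 10638 none. In 7491 the mean was under 5.

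All 36 arrays were fitted with limma 3.58.1 in R 4.3.3, with a mean for each of 6 conditions and cow as a block. Benjamini-Hochberg adjustment ran over the 24016 probe sets. Figures were drawn with Python 3.11.15 and matplotlib 3.10.9. The numbers of the cows pair the samples because the same animals gave both biopsies; deviations of a cow's arrays from their group means correlated at −0.0765 to 0.32, over 0.1 in 5 of 6 cows. The script was tested on simulated data.

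Genes were named by a rule: the 15 higher and 15 lower genes of lowest p with 1 direction in at least 5 of 6 cows, up to 3 of lowest p in each of 37 lists, and the milk proteins, 135 in all, each by its probe set of lowest p. Counts over lists used the probe set of highest mean. The comparison and the lists were chosen with earlier results of these data known. Other genes named in the text (among them KRT7, KRT15, KRT18, CDH1, HSPB1, HSP90AA1, CRYAB, HSPH1, NSDHL, FDFT1, SLC34A2, JUNB, KLF4, IER3, THBS1, FOS, JUN, EGR1, FTL, COL1A1, NDUFA4, SDHA) were chosen after their values were seen where the rule did not hold them. The alternatives were no block, only the 12 arrays, cow as a random effect, array weights, other moderation, other scaling, a filter on dim probe sets, 1 probe set per gene, control probe sets kept and each cow left out. Lists were counted again under some of these. Leaving out cows 1 and 3, or 1, 3 and 6, and the contrast of fore with rear glands were added after seeing the data.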

Additional observations from a re-analysis of the deposited data

Results flagged for a closer look

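In the differences of the 6 cows between days 23 and 21 in 2× glands, 135 genes and 37 list means were examined for a cow far from the others, by the gap between the most extreme cow and the next as a share of the whole range, with a limit of 0.625. The limit was passed by 23 of 172, 18 genes and 5 lists, and in 21 of these the cow was cow 1. Chance alone passes the limit in about 1 in 20 such groups, and the sets share the same 6 cows.

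Among genes of milk synthesis, cow 1 was the highest. The share was 0.813 for FASN (0.96 in cow 1, −0.01 to 0.17 in the others), 0.653 for ACSS2 (2.39, others −0.06 to 0.79), 0.801 for SREBF1 (2.60, others −0.10 to 0.44) and 0.789 for LPL (1.87, others −0.05 to 0.36). It was 0.646 for LSS (1.88, others −0.10 to 0.60), 0.755 for MUC1 (2.51, others −0.01 to 0.61), 0.632 for MFGE8 (1.70, others −0.05 to 0.59) and 0.663 for SLC38A3 (2.62, others −0.15 to 0.78). The milk proteins CSN3 and GLYCAM1 had 0.663 (0.39, others −0.02 to 0.11) and 0.643 (0.34, others −0.04 to 0.09).

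Further genes with cow 1 highest were GSS with 0.627 (2.69, others 0.05 to 1.04), CTPS1 with 0.711 (1.14, others 0.58 to 0.74) and AP1M1 with 0.769 (1.43, others 0.15 to 0.44). PTHLH, a hormone made by the lactating gland, had 0.729 (2.97, others 0.02 to 0.82) and KLF15, a transcription factor, 0.808 (1.77, others −0.03 to 0.31). Cow 1 was the lowest for KIT with 0.791 (−2.58, others −0.49 to 0.06) and HOXA5 with 0.644 (−1.63, others −0.57 to 0.01). For S100A9, a protein abundant in neutrophils, cow 3 was the lowest, with 0.763 (−1.51, others −0.26 to 0.13).

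Of the list means, milk proteins had 0.674 (0.28 in cow 1, −0.07 to 0.04 in the others) and triglyceride synthesis and milk fat secretion 0.705 (1.14, others 0.00 to 0.33). Cow 1 was the lowest for the interferon response with 0.74 (−1.04, others −0.20 to 0.10) and for the cell cycle with 0.643 (−0.35, others −0.06 to 0.11). For B and plasma cell genes cow 2 was the lowest, with 0.703 (−0.13, others 0.06 to 0.14). No change of a gene in 4× glands differed from that in 2× glands at an adjusted p under 0.05 (0 by limma, with 397 at an unadjusted p under 0.01).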

How the results depend on the processing

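The count of 1178 probe sets at an unadjusted p under 0.01 (483 higher, 695 lower) depended on the cows and on the block. It was 462 (178 higher, 284 lower) without the replicate block, 168 (58 and 110) with the replicate block on the 12 arrays alone, 238 (111 and 127) with array weights, and 510 (217 and 293) with 1 probe set per gene, where HOXA9 alone passed an adjusted p of 0.05 (1 gene, adjusted p = 0.0324). Scaled to 5 reference genes it was 848, with 564 higher and 284 lower, a share of 66.5% higher against 41% as deposited, and the median of all probe sets was 0.0808 in place of 0.0178. Leaving out 1 cow gave 266 to 1693 (105 to 729 higher, 161 to 1050 lower), lowest without cow 1 (266), then cow 3 (386) and cow 6 (785, with 469 higher and 316 lower), and 0 to 1 at an adjusted p under 0.05, the 1 without cow 6. With cows 1 and 3 both left out, 103 were called (41 and 62), and with cows 1, 3 and 6 left out 189 (111 and 78). The 397 differences in change between 4× and 2× glands became 122 without the replicate block, 242 with reference genes, 187 with 1 probe set per gene, 109 to 535 without 1 cow, 69 without cows 1 and 3 and 92 without cows 1, 3 and 6. Counts stayed within 1.5 times under a random cow effect (1013), other moderation (1146 and 975), array medians (1131), dim probe sets left out (979) and controls kept (1180). The cause of these shifts was not tested.

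Of the 83 called genes, 12 changed sign without cows 1, 3 and 6: BOLA-DMB 0.134, CFB 0.145, CFI 0.465, CTSB 0.0534, EPCAM 0.00602, KLF10 0.0926, MFGE8 −0.00141, PSMB10 0.0157, PSMB9 0.00873, RPL32 0.0156, SAA3 0.365 and SLC38A3 −0.0302. Of the 83, 62 lost the call with the 12 arrays alone, 45 with array weights and 37 without the replicate block, CTPS1 and ADIPOR2 among the 37. Of 702 list medians 6 moved by more than the SD over cows of the list mean. That SD includes cows 1, 3 and 6, and is wide where those cows stood apart. The complement median was −0.17 with all cows and 0.127 without cows 1, 3 and 6, and at an SD of 0.60 did not count as moved. The count is therefore no measure of stability.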

Other observations

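Some genes of the 4× glands passed an unadjusted p of 0.01 where the same probe set did not in the 2× glands. COL3A1, a fibrillar collagen, rose by 0.52 on day 23 in the 4× glands and had 0.34 (SE 0.19) in the 2× glands. TYMS, which makes thymidylate for DNA synthesis, rose by 0.28 in the 4× glands and had −0.03 (SE 0.09) in the 2× glands. RSAD2, an interferon-induced antiviral protein, fell by 0.45 in the 4× glands and had −0.42 (SE 0.16) in the 2× glands. For these 3 genes the difference in change between the sides did not pass 0.01. The bright probe set of LTF rose by 0.68 in the 4× glands, and its change there exceeded that of the 2× glands by 1.03 (SE 0.34, past 0.01, adjusted p = 0.544 by limma).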
